A study of Mus musculus with 12 samples.

Results

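The genes described here are 10 genes grouped as mast cell proteases and receptors and read in mouse skin. They are the proteases Cma1, Mcpt1, Mcpt2, Mcpt4, Mcpt8 (of basophils), Tpsb2, Tpsab1 and Cpa3, the receptor chain Ms4a2, and Hdc, the enzyme that makes histamine. They were listed by name, and all 10 of the 10 have a row of their own among the 22180 genes of the array table. The levels are log2 of the deposited array intensities, and a gene with several rows was read from its brightest one on average. RNA came from dorsal skin of male and female C57Bl/6 mice kept in a full barrier facility, and each of the 12 arrays read 1 pool of 4 or 5 mice, 58 mice if no mouse gave skin to more than 1 pool. The 6 groups are WT, IL-6KO (no IL-6), IL-17C+ (overexpressing the cytokine IL-17C) with separate pools of involved and uninvolved skin, and IL-17C+KO (the transgene together with loss of IL-6), again with involved and uninvolved skin. Every group has n = 2 pools, 1 from mice of 10 weeks and 1 from mice of 14 weeks. The fit removes the age difference common to all groups. The p-values therefore rest on how that difference varies between groups, pooled over the 6 groups. WT and IL-6KO skin was taken from matching regions of the back, and the labels call WT skin uninvolved and IL-6KO skin involved. Which promoter drives the transgene, whether more than 1 founder line was used, and whether involved and uninvolved pools share mice are not stated by the labels.

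Mast cells store proteases in their granules and release them, with histamine, when the high-affinity IgE receptor or other receptors are triggered. Mouse mast cells are divided by their protease content. Connective tissue type cells, the resident type of skin and peritoneum, carry the chymases Cma1 (mMCP-5) and Mcpt4 (mMCP-4), tryptases (Tpsb2, mMCP-6, and Tpsab1, mMCP-7) and the carboxypeptidase Cpa3. Mucosal type cells, known from the gut and airway epithelium, carry the chymases Mcpt1 and Mcpt2 (mMCP-1 and mMCP-2). Mcpt8 is a protease of basophils, Ms4a2 encodes the beta chain of the IgE receptor, and Hdc is made by mast cells and basophils but also by neutrophils and other myeloid cells.

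In outline, Mcpt4, Tpsb2 and Hdc were higher in skin labelled IL-17C+ involved than in WT skin and than in IL-17C+ uninvolved skin. The mucosal type proteases Mcpt1 and Mcpt2 did not pass in any of the 12 comparisons made, where 0% to 2.58% of all genes did. Among the transgenic pools labelled as lacking IL-6, the higher levels were found in the pools labelled IL-17C+KO uninvolved rather than in those labelled involved. Whether a level reflects more cells of a type or more RNA per cell cannot be told apart in these pools of whole skin.

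Il17c and Il6, which should tell the genotypes apart, were read first. The Il17c level at 10 and 14 weeks was 4.67 and 4.96 for WT pools, 5.81 and 6.63 for IL-17C+ involved pools and 4.74 and 4.16 for IL-17C+ uninvolved pools. Pools labelled IL-6KO gave 6.30 and 6.17, those labelled IL-17C+KO involved 5.32 and 5.62, and those labelled IL-17C+KO uninvolved 6.16 and 6.25. If the Il17c row reads the transgene, these levels go against the labels, so every group name below is the label of a library and every direction rests on it. Il6 was below the array median (the median level of all genes on an array, 3.97 to 4.23 over the 12 arrays) in WT and IL-6KO skin, with levels of 2.68 to 2.92, and read 4.23 and 3.21 in IL-17C+ involved skin. It read 4.93 and 5.00 in skin labelled IL-17C+KO uninvolved and 3.14 and 4.64 in skin labelled IL-17C+KO involved, so 3 of these 4 pools labelled as lacking IL-6 were above the array median. Which part of Il6 the row reads is not known, and loss of IL-6 below is a label only. Epidermal and dermal genes were abundant on all arrays: the mean level of 9 such genes lay between 9.55 and 10.4. The mean of 18 skeletal muscle genes differed between the groups, from 7.48 to 7.74 in IL-17C+ involved to 9.83 to 10.2 in IL-17C+ uninvolved skin, with 9.56 to 10.3 in WT, 8.14 to 8.86 in IL-6KO, 8.59 to 9.97 in IL-17C+KO involved and 8.12 to 8.68 in IL-17C+KO uninvolved skin.

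Which of these genes does the skin express? Cma1, Mcpt4, Tpsb2 and Cpa3 were above the array median on all 12 arrays, and Hdc was on 10. Mcpt1, Mcpt2, Mcpt8, Ms4a2 and Tpsab1 were below the array median on all 12. No detection call comes with the table, so a level below the array median is only a dim signal, neither presence nor absence. The members of the Mcpt family are close relatives, as are the 2 tryptases, and how far the probes of one read the others is not stated.

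Cpa3, which trims peptides in mast cell granules, read 6.84 at 10 weeks and 7.41 at 14 weeks for WT pools, 6.68 and 7.77 for IL-6KO pools, 8.46 and 8.69 for IL-17C+ involved pools, 7.88 and 6.26 for IL-17C+ uninvolved pools, 6.23 and 7.74 for IL-17C+KO involved pools, and 8.25 and 8.15 for IL-17C+KO uninvolved pools. Its 4 highest arrays were those of IL-17C+ involved and IL-17C+KO uninvolved skin, and the other 4 groups overlapped, with 0.57 to 1.62 between their 2 ages. Cma1, the alpha-chymase, read 5.12 and 5.11 for WT pools, 4.99 and 5.30 for IL-6KO pools, 6.41 and 5.99 for IL-17C+ involved pools, 5.30 and 4.73 for IL-17C+ uninvolved pools, 4.51 and 5.34 for IL-17C+KO involved pools, and 5.64 and 5.72 for IL-17C+KO uninvolved pools. The order of its groups was the same at the top, with IL-17C+ involved above IL-17C+KO uninvolved at both ages and no overlap with the 8 other arrays.

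Mcpt4, the main chymase of skin mast cells, read 6.14 and 6.46 for WT pools, 6.51 and 6.21 for IL-6KO pools, 8.30 and 7.63 for IL-17C+ involved pools, 6.09 and 5.79 for IL-17C+ uninvolved pools, 5.38 and 6.17 for IL-17C+KO involved pools, and 6.73 and 6.98 for IL-17C+KO uninvolved pools. IL-17C+ involved skin was the highest group at both ages, IL-17C+KO uninvolved skin was next and lay above the other 8 arrays, and WT and IL-6KO overlapped. Tpsb2, the tryptase, read 4.72 and 5.32 for WT pools, 5.06 and 4.33 for IL-6KO pools, 7.18 and 7.0 for IL-17C+ involved pools, 5.44 and 4.58 for IL-17C+ uninvolved pools, 4.53 and 5.05 for IL-17C+KO involved pools, and 6.12 and 6.36 for IL-17C+KO uninvolved pools. Here both high groups stood apart from each other and from the rest, while the other 4 groups overlapped. Tpsab1, the second tryptase, stayed between 2.84 and 3.31 on all arrays; in the RefSeq annotation of the C57BL/6J genome it is a transcribed pseudogene.

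**Figure D1:**
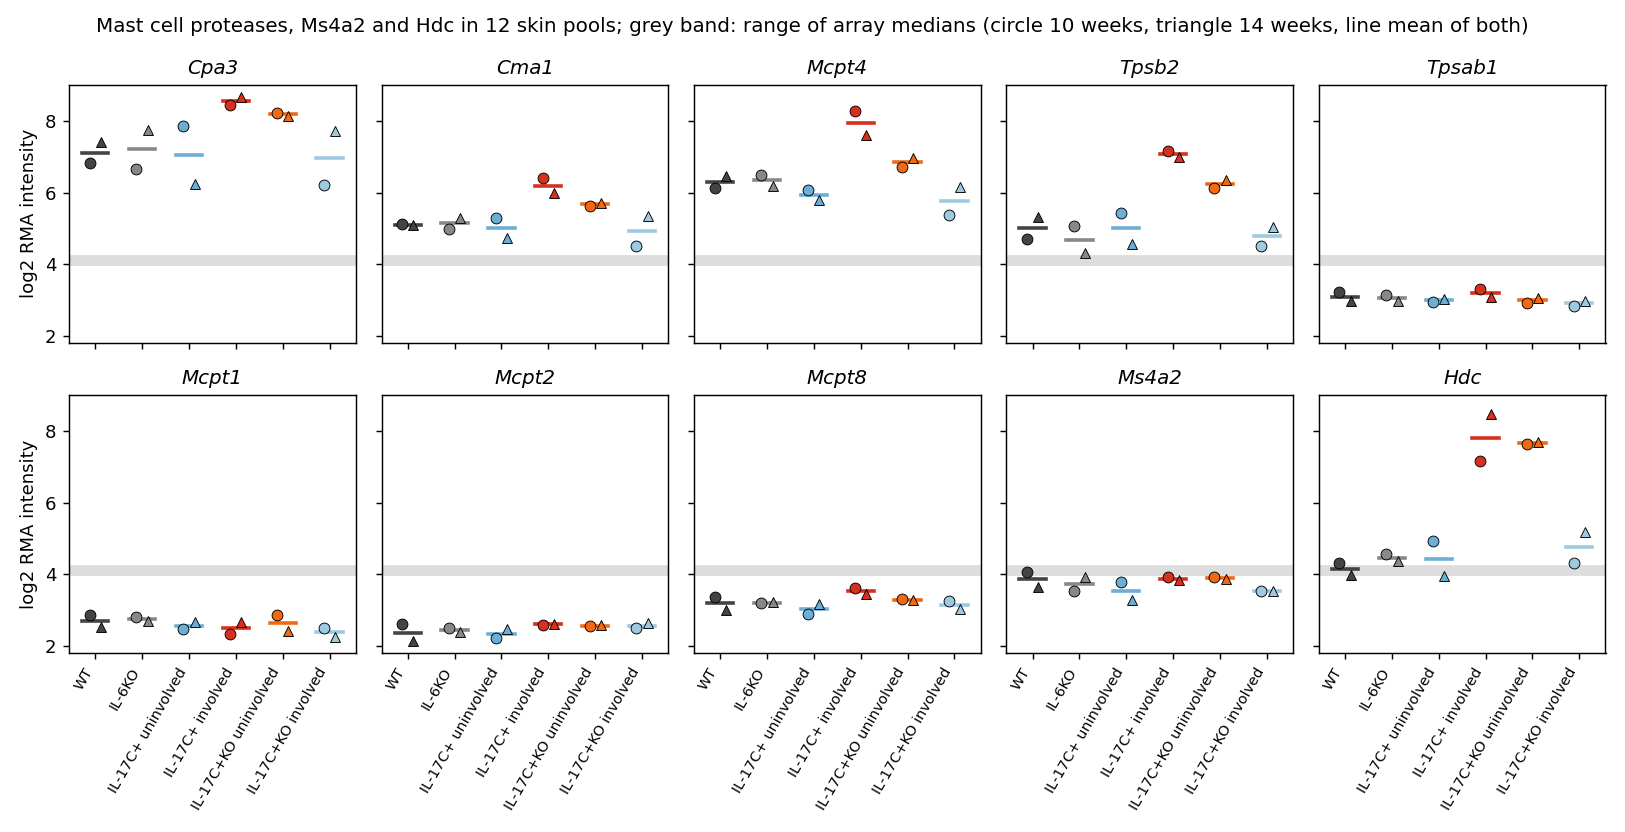
The plot of the 10 genes' levels by group shows log2 intensity on the y axis and the 6 groups on the x axis, with a circle for the 10-week pool, a triangle for the 14-week pool, a line at the mean of both and a grey band for the range of the 12 array medians. Cpa3, Cma1, Mcpt4, Tpsb2 and Hdc are highest in the 4 pools labelled IL-17C+ involved and IL-17C+KO uninvolved, Mcpt1, Mcpt2, Mcpt8 and Tpsab1 lie below the band in every pool, and Ms4a2 reaches into it in 1 WT pool, at 4.06.

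What distinguishes involved transgenic skin from WT skin? The chymase Mcpt4 rose by 1.66 ± 0.32 on the log2 scale (SE of limma; 3.17-fold; 95% interval 0.97 to 2.35; adjusted p = 0.0204) and the tryptase Tpsb2 rose by 2.07 ± 0.35 (4.2-fold; interval 1.32 to 2.82; adjusted p = 0.0112). Hdc rose by 3.68 ± 0.42 (12.8-fold; interval 2.76 to 4.60; adjusted p = 0.000981). Cma1 was 1.08 ± 0.31 higher (interval 0.42 to 1.75; adjusted p = 0.111) and Cpa3 1.45 ± 0.53 higher (interval 0.29 to 2.61; adjusted p = 0.265), and neither passed. A gene passed where the adjusted p of limma, by Benjamini-Hochberg over the 22180 genes, was under 0.05. By that rule 3 of the 10 genes passed, all higher, where 1.8% of all genes passed (399, of them 244 higher). The median difference was 1.45 over the 5 connective tissue type proteases, 0.02 over the 2 mucosal type ones and 0.01 over all genes. Leaving out 1 array ended the call of Mcpt4 in 3 cases (the IL-17C+ involved pool of 10 weeks, adjusted p = 0.307, and the WT pools of 10 weeks, 0.0978, and 14 weeks, 0.0665) and that of Tpsb2 in 3 (both IL-17C+ involved pools, 0.139 and 0.0817, and the WT pool of 10 weeks, 0.0665), so that 1 to 3 genes passed; Hdc passed whichever array was left out. With the muscle gene mean as a covariate, which widened the median standard error 2.15 times, 0 of the 10 and 0 of all 22180 genes passed. With the mean of hair shaft genes only Hdc of the 10 passed, beside 86 of all genes.

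The comparison within the transgenic mice gave the same 3 genes. Against IL-17C+ uninvolved skin, IL-17C+ involved skin was higher by 2.02 ± 0.32 for Mcpt4 (4.06-fold; adjusted p = 0.00696), by 2.08 ± 0.35 for Tpsb2 (4.23-fold; adjusted p = 0.00989) and by 3.38 ± 0.42 for Hdc (10.4-fold; adjusted p = 0.00169). The differences of Cma1 (1.18 ± 0.31, adjusted p = 0.0863) and Cpa3 (1.51 ± 0.53, adjusted p = 0.235) did not pass, though Cma1 did when either IL-17C+KO involved pool was left out of the fit (0.0463 and 0.0462). Of all genes 1.61% passed here (357), and both comparisons share the IL-17C+ involved arrays. Cpa3 depended on 1 pool: without the IL-17C+ uninvolved pool of 10 weeks, where it read 7.88, the difference was 2.65 (adjusted p = 0.0149). Mcpt4 lost its call without the IL-17C+ involved pool of 10 weeks (adjusted p = 0.123) or the uninvolved pool of 14 weeks (0.0565), and Tpsb2 without either involved pool (0.115 and 0.105) or that same uninvolved pool (0.0804). With the muscle covariate 0 of the 10 genes passed, and 0 of all 22180 genes did.

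Against WT, skin labelled IL-17C+ uninvolved showed no call. IL-17C+ uninvolved skin differed from WT by -0.36 (Mcpt4) to 0.30 (Hdc) over the 10 genes, and 0 of the 10 passed, while 0.0541% of all genes did (12). For Tpsb2 the difference was -0.01, with an interval of -0.76 to 0.74.

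**Figure D2:**
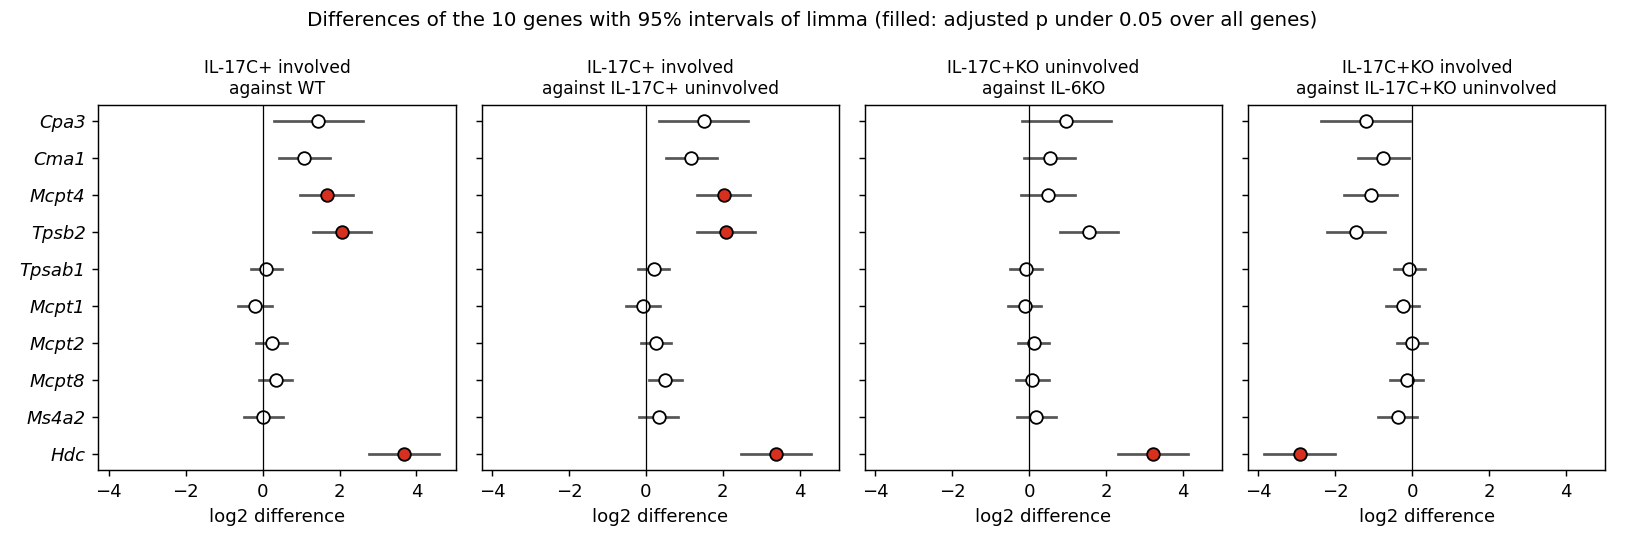
The plot of differences for the 10 genes gives, in 4 comparisons, the log2 difference on the x axis with the 95% interval of limma as a line, filled where the adjusted p over all genes was under 0.05. Mcpt4, Tpsb2 and Hdc are filled in both comparisons of IL-17C+ involved skin, at 1.66 to 3.68, and Hdc alone is filled in both comparisons of IL-17C+KO uninvolved skin, at 3.22 and -2.93.

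The mucosal type proteases stayed dim everywhere. Mcpt1 lay between 2.26 and 2.85 on the 12 arrays and Mcpt2 between 2.14 and 2.63. In IL-17C+ involved against WT skin Mcpt1 differed by -0.20 ± 0.20 (interval -0.63 to 0.24) and Mcpt2 by 0.23 ± 0.18 (interval -0.16 to 0.63). Over the 12 comparisons Mcpt1 ranged from -0.37 to 0.07 and Mcpt2 from -0.27 to 0.27, and the smallest adjusted p was 0.626. Compared as classes, the mean of the 5 connective tissue type genes was 6.73 at 10 weeks and 6.48 at 14 weeks in IL-17C+ involved skin and 5.21 and 5.45 in WT skin, and the mean of Mcpt1 and Mcpt2 was 2.46 and 2.64 against 2.73 and 2.33.

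Promoters of Cpa3, Cma1, Mcpt4 and Hdc, and of the dim Mcpt1 beside them, are shown because GATA factors, which bind the core GATAA, are known regulators of mast cell genes. Of the 10 genes 7 matched a RefSeq promoter window (GRCm38.p6), and Mcpt2, Tpsb2 and Tpsab1 are named only. Each line gives the 150 bases before the start of the gene in its own direction, with GATAA on the printed strand in capitals.
Cpa3, chr3:20242182-20242331, minus strand: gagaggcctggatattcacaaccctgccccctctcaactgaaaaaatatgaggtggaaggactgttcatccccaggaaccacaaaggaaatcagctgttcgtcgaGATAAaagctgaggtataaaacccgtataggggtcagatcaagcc
Cma1, chr14:55944676-55944825, minus strand: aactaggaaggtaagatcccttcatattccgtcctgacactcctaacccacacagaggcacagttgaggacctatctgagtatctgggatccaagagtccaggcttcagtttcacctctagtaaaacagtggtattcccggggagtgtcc
Mcpt4, chr14:56062311-56062460, minus strand: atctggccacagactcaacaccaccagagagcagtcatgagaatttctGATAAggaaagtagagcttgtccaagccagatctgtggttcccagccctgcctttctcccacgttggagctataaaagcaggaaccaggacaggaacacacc
Mcpt1, chr14:56017814-56017963, plus strand: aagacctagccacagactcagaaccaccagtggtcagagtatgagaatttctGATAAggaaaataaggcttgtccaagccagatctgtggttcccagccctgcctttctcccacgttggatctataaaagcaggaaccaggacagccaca
Hdc, chr2:126618679-126618828, minus strand: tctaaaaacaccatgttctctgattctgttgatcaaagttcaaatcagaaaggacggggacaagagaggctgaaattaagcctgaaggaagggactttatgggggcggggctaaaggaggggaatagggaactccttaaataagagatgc

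In windows of 250 bases before the start, searched on both strands, GATAA was found in 22.6% of 32851 RefSeq promoters. It begins 45 bases before the start of Cpa3, 102 before that of Mcpt4 and 98 before that of Mcpt1; Cma1 holds it on the other strand 194 bases before the start, outside the stretch shown. Ms4a2 has 3 matches, and Hdc and Mcpt8 have none in this window. The letters TATAAA, in 12.4% of promoters, stand 31, 32 and 28 bases before Cpa3, Mcpt4 and Mcpt1, and Cpa3 holds them again on the other strand, 242 bases before its start. CATGTG, an E-box form that the factor MITF binds, was in 0 of the 7 windows and in 12.3% of all, and the general E-box CANNTG, which includes it, in 4 of the 7 and in 66.2% of all. The windows of Mcpt4 and Mcpt1 are relatives, with 207 of 246 aligned bases identical (84.1%), where the other 20 pairs reach 36.8 to 50.4%. So Mcpt1, dim on every array, and Mcpt4, which rose, share the GATAA and TATAAA letters shown. A match of letters describes the sequence and does not show binding.

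The basophil protease Mcpt8 read 2.90 to 3.63 and was highest on both IL-17C+ involved arrays, at 3.63 and 3.45. It was 0.34 ± 0.20 higher than in WT (adjusted p = 0.565) and 0.51 ± 0.20 higher than in IL-17C+ uninvolved skin (adjusted p = 0.306), and passed nowhere. Ms4a2, the receptor chain, read 3.30 to 4.06, with its highest level on the WT array of 10 weeks, and its difference from WT in IL-17C+ involved skin was 0.02 (interval -0.49 to 0.53). Ms4a2, Mcpt8 and Tpsab1 passed in 0 of the 12 comparisons, in each of which 0% to 2.58% of all genes passed.

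Hdc showed the widest range of the 10 genes. It read 4.32 and 3.97 for WT pools, 4.57 and 4.37 for IL-6KO pools, 7.17 and 8.48 for IL-17C+ involved pools, 4.93 and 3.96 for IL-17C+ uninvolved pools, 4.33 and 5.18 for IL-17C+KO involved pools, and 7.65 and 7.72 for IL-17C+KO uninvolved pools. No array of the 2 high groups came near the 8 others, whose highest level was 5.18. Between the high groups the order turned with age, IL-17C+ involved being 0.48 lower at 10 weeks and 0.76 higher at 14 weeks.

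How did the genes stand in skin labelled as lacking IL-6? IL-6KO skin differed from WT by -0.33 (Tpsb2) to 0.32 (Hdc) over the 10 genes, with 0 of the 10 past the test and 0.455% of all genes (101). In skin labelled IL-17C+KO involved against IL-6KO, the 10 genes ranged from -0.58 (Mcpt4) to 0.29 (Hdc), again with 0 of 10 passed against 0.171% of all genes (38, all lower). For Mcpt4 the interval of this difference was -1.27 to 0.11 and for Tpsb2 it was -0.66 to 0.85. Hdc, at 0.29, had an interval of -0.63 to 1.21.

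The pools labelled IL-17C+KO uninvolved behaved otherwise. Against IL-6KO skin Hdc rose by 3.22 ± 0.42 (9.30-fold; interval 2.30 to 4.14; adjusted p = 0.00433), and Tpsb2 was 1.55 ± 0.35 higher (interval 0.79 to 2.30; adjusted p = 0.0946). Cpa3 (0.97 ± 0.53), Cma1 (0.54 ± 0.31) and Mcpt4 (0.49 ± 0.32) did not pass. That is 1 of 10 genes, beside 0.397% of all genes (88, of them 87 higher), and the call of Hdc was lost without the IL-6KO pool of 14 weeks (adjusted p = 0.0870) or the IL-17C+KO uninvolved pool of 14 weeks (0.0750). Tpsb2 passed as well with only the 4 arrays compared, or when either IL-17C+ uninvolved pool was left out of the fit (0.0471 and 0.0476). Against IL-17C+ uninvolved skin Hdc was 3.24 ± 0.42 higher (9.45-fold; adjusted p = 0.00247) and was the 1 gene of 10 to pass, where 0.712% of all genes did (158), a call lost with the muscle covariate (0.511); Cpa3, at 1.13 ± 0.53, passed without the IL-17C+ uninvolved pool of 10 weeks (2.27, adjusted p = 0.0352) and was at -0.01 without that of 14 weeks.

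Involved skin labelled IL-17C+KO was lower than its uninvolved counterpart. Hdc fell by 2.93 ± 0.42 (interval -3.85 to -2.01; adjusted p = 0.0102), the 1 gene of 10 to pass beside 0.505% of all genes (112, of them 106 lower). Tpsb2 was at -1.46 ± 0.35 (adjusted p = 0.127), Cpa3 at -1.21 ± 0.53, Mcpt4 at -1.08 ± 0.32 and Cma1 at -0.75 ± 0.31. The call of Hdc was lost without the involved pool of 10 weeks (adjusted p = 0.191) or either uninvolved pool (0.0856 and 0.106), with the pools of 1 genotype and age as a block (0.0659), and with the muscle (0.0911) or hair (0.0923) covariate.

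Does involved transgenic skin differ between the 2 IL-6 labels? IL-17C+KO involved skin was lower than IL-17C+ involved skin, by a log2 difference of -2.19 ± 0.32 for Mcpt4 (adjusted p = 0.00875), -2.31 ± 0.35 for Tpsb2 (0.0104) and -3.07 ± 0.42 for Hdc (0.00622). Cma1 (-1.27 ± 0.31, adjusted p = 0.0953) and Cpa3 (-1.59 ± 0.53, adjusted p = 0.289) did not pass, but Cma1 did without the IL-17C+KO involved pool of 14 weeks (-1.75, 0.0291). So 3 of 10 genes were lower, where 0.649% of all genes passed (144, of them 93 lower). Without the IL-17C+KO involved pool of 10 weeks none of the 3 calls held (adjusted p = 0.197, 0.215 and 0.144). Mcpt4 and Tpsb2 also lost their calls without the IL-17C+ involved pool of 10 weeks (0.138 and 0.129), and Tpsb2 and Hdc without that of 14 weeks (0.0816 and 0.0714). The muscle covariate (0.720, 0.366 and 0.766 for Mcpt4, Tpsb2 and Hdc) and the hair covariate (0.589, 0.374 and 0.0600) each ended all 3 calls. Fibroblast and collagen genes were lower in the same comparison: 9 of 9 differences were negative and 3 passed, with a list mean of 9.05 to 9.26 against 10.3 in both IL-17C+ involved pools. In IL-17C+KO involved against uninvolved skin, whose list mean was 10.2 to 10.4, 9 of 9 were negative and 3 passed, and in IL-17C+KO uninvolved against IL-6KO skin (8.86 to 8.96) 9 of 9 were positive and 3 passed. IL-6KO against WT skin gave 9 of 9 negative and 4 passed, with list means of 8.86 to 8.96 against 10 to 10.2. In IL-17C+ involved against WT skin 0 of 9 passed, with 5 positive and 4 negative. The part of these genes in the differences of the mast cell genes was not tested.

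The interaction terms tested these contrasts directly. The difference of involved transgenic skin from its control, WT or IL-6KO, was lower in the pools labelled as lacking IL-6. This passed for 2 of 10 genes, beside 1.31% of all genes (290). For Mcpt4 it was -0.58 against 1.66 (a difference of log2 differences of -2.25 ± 0.45, adjusted p = 0.0305). For Hdc it was 0.29 against 3.68 (-3.39 ± 0.60, adjusted p = 0.0162). Tpsb2 was at -1.98 ± 0.49 (adjusted p = 0.0844). Leaving out 1 array left 0 to 3 genes: Mcpt4 lost its call when any 1 of 6 pools was left out (both WT and both IL-6KO pools and the 10-week pools of both kinds of involved skin, adjusted p = 0.0663 to 0.209), and Hdc when any 1 of 5 was (0.0544 to 0.103). The step from uninvolved to involved skin had opposite signs in pools labelled IL-17C+ and IL-17C+KO: its interaction was -1.94 ± 0.43 for Cma1 (adjusted p = 0.0331), -3.10 ± 0.45 for Mcpt4 (0.00284), -3.54 ± 0.49 for Tpsb2 (0.00200) and -6.31 ± 0.60 for Hdc (0.000116), and Cpa3, at -2.72 ± 0.75, did not pass (0.0907). These are 4 of 10 genes, all lower, beside 2.58% of all genes (573, of them 318 lower). Mcpt4, Tpsb2 and Hdc passed here whichever array was left out, and Cma1 did not pass in 6 of the 12 fits that left out 1 array (adjusted p = 0.0621 to 0.221). Cpa3 passed without the IL-17C+ uninvolved pool of 10 weeks (-3.86, adjusted p = 0.00378) or the IL-17C+KO involved pool of 14 weeks (-3.46, 0.0288). With the muscle gene mean as a covariate 0 of the 10 passed in either interaction, and with that of hair genes 0 passed in the first.

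The pools labelled IL-17C+ involved and IL-17C+KO uninvolved were seen to be the high ones only after the values were known, so their separation is given as a description. For Cma1, Mcpt4, Tpsb2, Cpa3 and Hdc, 5 of the 10 genes, all 4 of these arrays lay above the 8 others, which held for 1.97% of all genes (438). The gaps differed: the lowest of the 4 against the highest of the 8 was 5.64 against 5.34 for Cma1, 6.73 against 6.51 for Mcpt4 and 8.15 against 7.88 for Cpa3. It was 6.12 against 5.44 for Tpsb2 and 7.17 against 5.18 for Hdc. Side by side and with no test, the mean of IL-17C+ involved skin was above that of IL-17C+KO uninvolved skin by 1.11 for Mcpt4, 0.85 for Tpsb2, 0.52 for Cma1 and 0.38 for Cpa3, at both ages, and by 0.14 for Hdc.

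Age was read last. The term for 14 against 10 weeks ranged from -0.07 (Tpsb2) to 0.28 (Cpa3) over the 5 brighter genes, and by limma 0 of 22180 genes passed (0%), with 1856 at an unadjusted p under 0.05. Within groups Cpa3 moved most, by -1.62 from 10 to 14 weeks in IL-17C+ uninvolved skin and by 1.5 in skin labelled IL-17C+KO involved. Hdc was 1.31 higher at 14 than at 10 weeks in IL-17C+ involved skin, where the same difference was -0.67 for Mcpt4. With 1 pool per age and group, these single differences have no replicate.

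Other genes of mast cells give a wider view. Of 20 further mast cell genes 19 were measured. In IL-17C+ involved against WT skin 4 of them passed, all higher, with a median of 0.30, beside 1.8% of all genes. Of the 19 differences 12 were positive and 7 negative, down to -0.80 for Hpgds, a prostaglandin D synthase (adjusted p = 0.344). Srgn, the core protein of the granule proteoglycan that binds the proteases and a product of many blood cells, rose by 2.44 ± 0.43 (adjusted p = 0.0127). Fcer1a, the IgE-binding chain of the receptor, rose by 1.62 ± 0.30 (adjusted p = 0.0156), although its signal was below the array median on 11 of the 12 arrays. Tph1, which starts serotonin synthesis, rose by 1.21 ± 0.22 (adjusted p = 0.0152). Its signal was below the array median in every pool except those of IL-17C+ involved skin. The sizes of both differences are therefore uncertain. The fourth, Slc18a2, which loads monoamines such as histamine into granules, was close to the threshold (1.14 ± 0.26, adjusted p = 0.0483) and lost the call in 9 of the 12 fits that left out 1 array. Kit, the receptor that mast cells need for survival, was 1.02 ± 0.24 higher (adjusted p = 0.0563) and the mast cell factors Gata2 (0.30 ± 0.23) and Mitf (-0.32 ± 0.27), named after their values were seen like Slc18a2, Mrgprb2, Hpgds, Kitl and Hnmt, did not pass. Mrgprb2, a receptor of connective tissue type mast cells, was at -0.40 ± 0.27 (adjusted p = 0.632), with levels of 3.99 and 4.05 for IL-17C+ involved, 4.22 and 4.62 for WT and 5.02 and 4.3 for IL-17C+ uninvolved pools. The call of Fcer1a was lost without either IL-17C+ involved pool (adjusted p = 0.0616 and 0.179) or the WT pool of 14 weeks (0.132), that of Tph1 without the IL-17C+ involved pool of 10 weeks (0.227) or the WT pool of 14 weeks (0.113), and that of Srgn when any 1 of the 4 pools compared was left out (0.0529 to 0.155).

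These genes did not all follow the same groups. Kit read 6.25 and 5.79 for IL-17C+ involved pools, 5.50 and 5.75 for IL-17C+KO uninvolved pools and 4.85 to 5.40 on the other 8 arrays. Fcer1a read 3.39 and 4.11 for IL-17C+ involved pools but 2.33 and 3.24 for those labelled IL-17C+KO uninvolved, with 1.86 to 2.77 elsewhere, and Tph1 4.35 and 4.09 against 3.02 and 3.34, with 2.76 to 3.36 elsewhere. Thus both Fcer1a and Tph1 lay above all 10 other arrays in IL-17C+ involved skin, while in IL-17C+KO uninvolved skin both overlapped with the rest. Srgn was high in both groups (7.71 and 8.59, then 8.33 and 8.79, against 5.42 to 6.70).

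The counts followed these levels. Of all genes 1.61% passed in IL-17C+ involved against IL-17C+ uninvolved skin and 0.397% in IL-17C+KO uninvolved against IL-6KO skin. For the interaction of the step from uninvolved to involved skin, 2.58% did. The same 4 genes passed against IL-17C+ uninvolved skin: Srgn (2.09 ± 0.43, adjusted p = 0.0285), Fcer1a (1.44 ± 0.30, 0.0285), Slc18a2 (1.24 ± 0.26, 0.0335) and Tph1 (1.12 ± 0.22, 0.0234). Of the 12 fits that left out 1 array, 3 ended the call of Srgn, 3 that of Fcer1a, 3 that of Tph1 and 6 that of Slc18a2, and the muscle covariate ended all 4. In IL-17C+KO uninvolved against IL-6KO skin only Srgn of the 19 passed (2.65 ± 0.43, adjusted p = 0.0169), with Fcer1a at 0.44 ± 0.30, Tph1 at 0.28 ± 0.22 and Kit at 0.25 ± 0.24; the call of Srgn was lost when any 1 of the 4 pools compared was left out (adjusted p = 0.0784 to 0.261). For the step from uninvolved to involved skin in IL-17C+KO against IL-17C+ pools, the interaction passed for 5 of 19, all lower: Srgn (-4.52 ± 0.60), Mrgprb1, a Mas-related receptor (-1.92 ± 0.39), Fcer1g, the signalling chain shared by Fc receptors (-1.70 ± 0.38), Kit (-1.51 ± 0.34) and Tph1 (-1.38 ± 0.31), the last pair named after their values were seen. Of these, Srgn passed whichever array was left out, and the others lost the call in 6 to 10 of the 12 such fits.

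**Figure D3:**
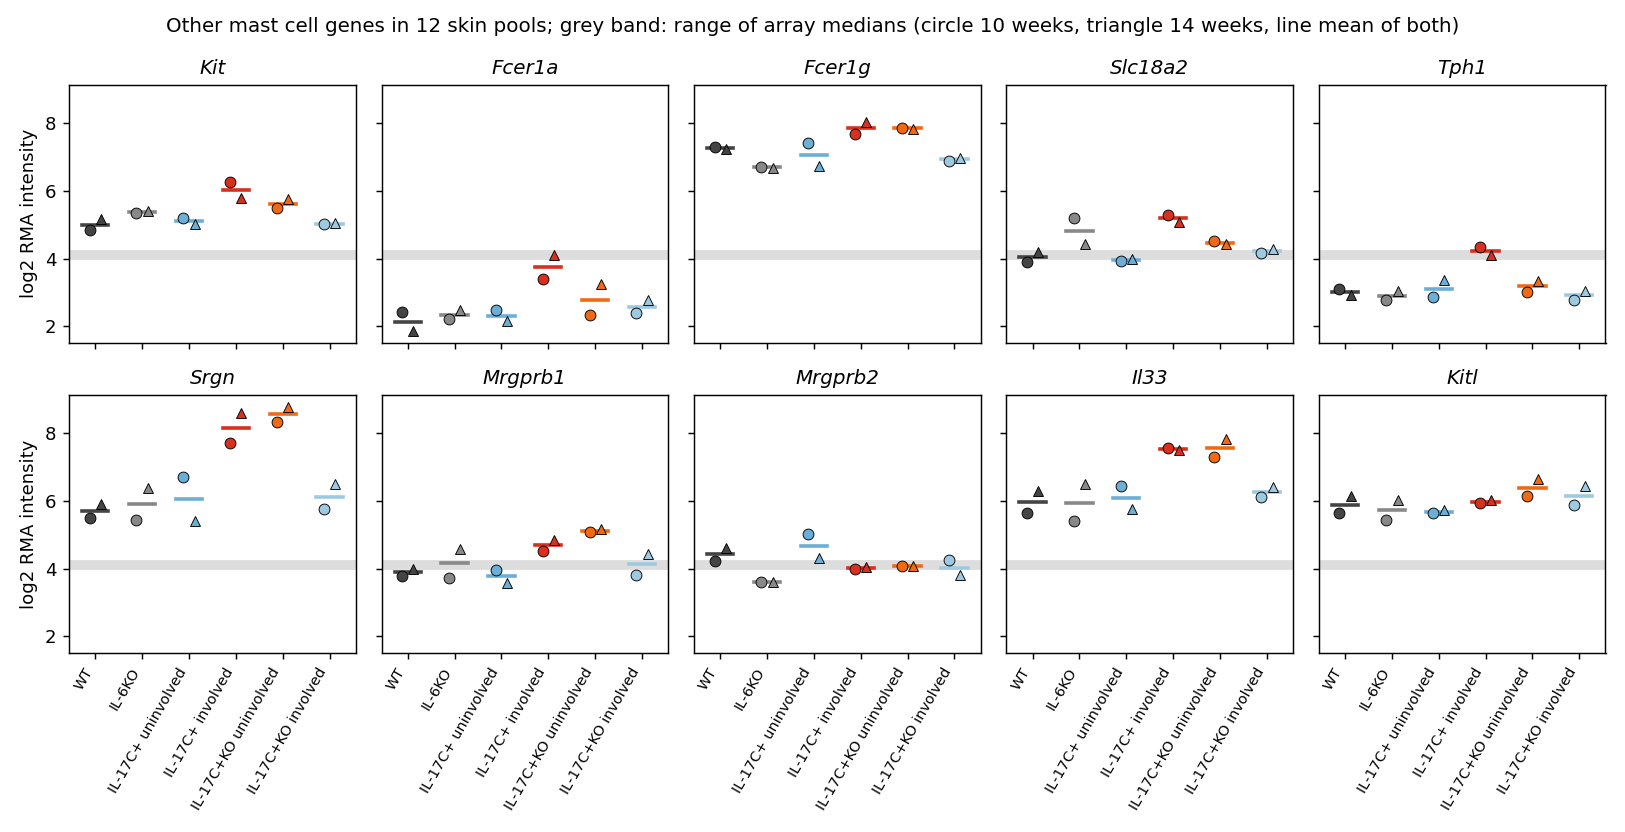
The plot of other mast cell genes uses the same axes and symbols for Kit, Fcer1a, Fcer1g, Slc18a2, Tph1, Srgn, Mrgprb1, Mrgprb2, the cytokine Il33 and the Kit ligand Kitl. Srgn and Il33 are high in both IL-17C+ involved and IL-17C+KO uninvolved pools, whereas Tph1 (4.35 and 4.09) and Fcer1a (3.39 and 4.11) are highest in the IL-17C+ involved pools.

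Cytokines and receptors that feed or activate mast cells were read from a list of 16, of which 15 were measured. In IL-17C+ involved against WT skin 2 of 15 passed, beside 1.8% of all genes. Il33, an alarmin of epithelium that activates mast cells, rose by 1.55 ± 0.35 (adjusted p = 0.0422), and Csf2rb2, the mouse IL-3 receptor beta chain, by 1.44 ± 0.30 (adjusted p = 0.0319). Csf2rb was 1.14 ± 0.27 higher (adjusted p = 0.0578). Kitl, the ligand of Kit, differed by 0.09 ± 0.24 and did not pass. Against IL-17C+ uninvolved skin the 1 gene of 15 to pass, beside 1.61% of all genes, was the IL-4 receptor chain Il4ra (1.15 ± 0.25, adjusted p = 0.0356). Il4ra also rose in IL-17C+KO uninvolved over IL-6KO skin (1.57 ± 0.25, adjusted p = 0.0160). Without 1 array, Il33 and Csf2rb2 each lost the call against WT in 6 of 12 fits, and Il4ra lost it in 6 of 12 against IL-17C+ uninvolved skin and in 4 of 12 in IL-17C+KO uninvolved against IL-6KO skin. By level, all 4 arrays of IL-17C+ involved and IL-17C+KO uninvolved skin lay above the 8 others for 5 of the 15 genes. This held for 1.97% of all genes. The 5 were Il33, Il4ra, Csf2rb, Csf2rb2 and Tgfb1. Il33 read 7.56 and 7.5 for IL-17C+ involved pools, 7.31 and 7.83 for IL-17C+KO uninvolved pools, and 5.40 to 6.50 on the other 8 arrays. For Il4ra the lowest of the 4 was 7.87 and the highest of the 8 was 7.13.

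Of 13 measured enzymes and receptors of histamine and lipid mediators, 1 passed in IL-17C+ involved against WT skin, where 1.8% of all genes did. Ptgs2, the inducible cyclooxygenase, rose by 2.82 ± 0.36 (adjusted p = 0.00188). Alox5ap, which leukotriene synthesis needs, was 1.30 ± 0.31 higher (adjusted p = 0.0562). Against IL-17C+ uninvolved skin 2 of 13 passed, beside 1.61% of all genes. In IL-17C+KO uninvolved against IL-6KO skin 2 of 13 passed, beside 0.397% of all genes. Alox5ap passed against IL-17C+ uninvolved skin (1.69 ± 0.31, adjusted p = 0.0174), a call lost in 3 of 12 fits without 1 array. Hnmt, which breaks histamine down, was at -0.60 ± 0.28 (adjusted p = 0.428). Among 10 basophil genes 2 passed against WT, Fcer1a and Hgf (1.34 ± 0.28, adjusted p = 0.0322), of which Hgf is made by other cells too and lost its call in 3 of 12 fits without 1 array. Of 7 eosinophil and 8 T cell genes 0 passed in IL-17C+ involved against WT skin, where 1.8% of all genes did. The eosinophil mean (2.90 to 3.31) lay below the array median on all 12 arrays.

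Neutrophil markers were high in the same groups as Hdc, Cma1, Mcpt4, Tpsb2 and Cpa3. The mean of 13 such genes was 6.71 to 7.19 in IL-17C+ involved and 6.84 to 7.46 in IL-17C+KO uninvolved skin, against 4.03 to 5.11 on the other 8 arrays, and 11 of the 13 had all 4 arrays of these groups above the others. Against WT all 13 were higher in IL-17C+ involved skin, by 0.29 to 6.39 with a median of 2.36, and 8 passed, beside 1.8% of all genes. Retnlg, a gene of neutrophil granulocytes and not the one of largest difference, rose by 5.08 ± 0.46 (adjusted p = 0.000248). In IL-17C+KO uninvolved over IL-6KO skin 7 of 13 passed, all higher, beside 0.397% of all genes, with Retnlg at 5.54 ± 0.46 (adjusted p = 0.000128). Neutrophils make Hdc as well, and their part in the Hdc difference was not tested. Over the 12 arrays the correlation with the neutrophil mean (Pearson) was 0.97 for Hdc, 0.85 for Tpsb2, 0.83 for Cma1, 0.78 for Cpa3 and 0.77 for Mcpt4. It was 0.63 for Mcpt8, 0.57 for Mcpt2, 0.51 for Ms4a2, 0.26 for Tpsab1 and -0.13 for Mcpt1. Within the 8 arrays of the other 4 groups it was 0.68 for Hdc, 0.52 for Cma1, 0.44 for Cpa3, 0.20 for Mcpt4 and -0.21 for Tpsb2. There the dim Mcpt2 gave 0.60, Ms4a2 0.21, Mcpt8 0.13, Tpsab1 0.12 and Mcpt1 -0.26. These describe arrays that share the mouse strain, the platform and the group differences. Muscle genes ran the other way in IL-17C+ involved skin, where 15 of 18 fell against WT (median -2.20), and their part in the differences was not tested beyond the covariate fits given above.

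**Figure D4:**
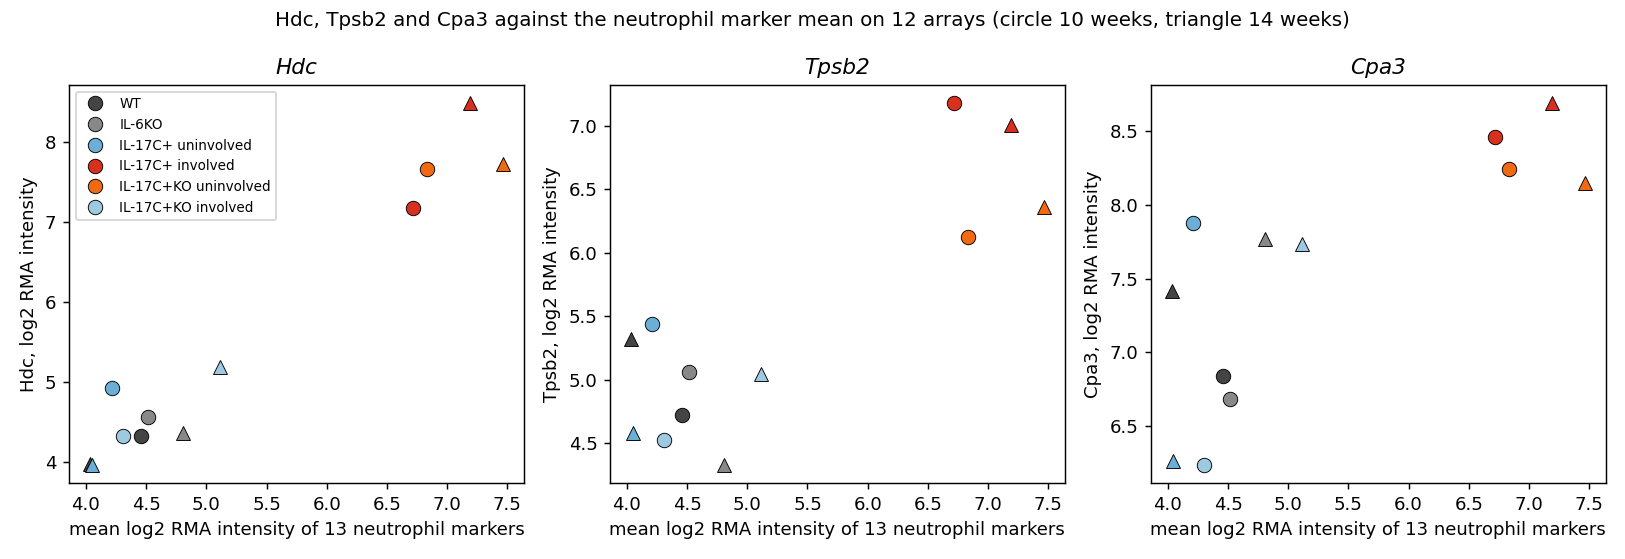
The plot of Hdc, Tpsb2 and Cpa3 against the neutrophil mean has 1 point per array, with log2 levels on both axes, colours for the groups, circles for 10 weeks and triangles for 14 weeks. The 4 arrays labelled IL-17C+ involved and IL-17C+KO uninvolved form the upper right cluster in each panel, and among the 8 others Tpsb2 shows no common rise with the neutrophil mean (r = -0.21).

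Most of the proteases are neighbours in the genome, which allows a comparison along the chromosome. In RefSeq order the cluster on chromosome 14 runs Cma1, Cma2, Mcpt1, Mcpt2, Mcpt9, Mcpt4, Mcpt8, Ctsg (cathepsin G) and then the granzymes Gzme, Gzmd, Gzmg, Gzmn, Gzmf, Gzmc and Gzmb; 14 of the 15 were measured. In IL-17C+ involved against IL-17C+ uninvolved skin Mcpt4 (2.02) and Cma1 (1.18, not passed) stood beside Cma2 at 0.30, Mcpt1 at -0.07, Mcpt2 at 0.27 and Mcpt9 at 0.19. The 9 measured neighbours that are not among the 10 genes ranged from -0.41 (Gzmb) to 0.67 (Gzmf), and 0 of them passed in this comparison or against WT, where they ranged from -0.29 to 0.21. The tryptase cluster on chromosome 17 runs Prss34, Prss28, Prss29, Tpsab1, Tpsb2 and Tpsg1. There Tpsb2 was at 2.08, Tpsab1 at 0.21, and the 4 others lay between -0.01 and 0.28 with 0 passed. Prss27, a serine protease of the epidermis from the same list of relatives, was 1.82 ± 0.50 higher (adjusted p = 0.107) and did not pass, though it did when 1 WT or 1 IL-17C+KO involved pool was left out of the fit (0.0246 to 0.0428); with the muscle gene mean as a covariate it was at -1.13.

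Among themselves 4 of the 5 connective tissue type genes varied together. Over the 12 arrays Pearson's r was 0.94 between Cma1 and Mcpt4, 0.92 between Cma1 and Cpa3, 0.91 between Mcpt4 and Tpsb2 and 0.78 between Mcpt4 and Cpa3. Tpsab1, the fifth, gave 0.19 with Cpa3, 0.40 with Tpsb2, 0.52 with Cma1 and 0.64 with Mcpt4. Mcpt1 with Mcpt2 gave 0.06, and Mcpt1 with Cma1, Mcpt4, Tpsb2 and Cpa3 gave -0.28 to -0.19. Hdc gave 0.90 with Tpsb2 and 0.77 with Mcpt4. These are descriptions over arrays that share the group differences.

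The genes whose profile was most like the mean of Cma1, Mcpt4, Tpsb2 and Cpa3, out of 17384 named genes, were Cotl1 (r = 0.96 over 12 arrays and 0.85 within the 8 arrays outside the high groups), Fbln5 (0.93 and 0.79), Sprr2g (0.93 and 0.73), Pfn1 (0.92 and 0.58), Tnfaip2 (0.92 and 0.77), Cxcr4 (0.92 and 0.62), Tgfb1 (0.92 and 0.61), Cdh11 (0.91 and 0.92), Csta3 (0.90 and 0.48) and Phlda1 (0.90 and 0.55). None of the 5 closest to Hdc is on that list: they were Clec4d, Clec4e, Cxcl2, Ccl3 and Il1b, at 0.98 to 0.99 over 12 arrays and 0.63 to 0.82 within the 8. Closest to the dim Mcpt1 and Mcpt2 were Lcn6, Chrnb4, Mgat4e, Prdm12 and Syt8 (0.87 to 0.89), and to Mcpt8 Gsdmcl-ps, Oxct2b, Il19, Upp2 and Grwd1 (0.88 to 0.91). Of the last group Il19 is a cytokine of inflamed epidermis.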

How the data were processed

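RNA of 12 pools of dorsal skin was hybridised to Affymetrix arrays, 1 array per pool. The authors deposited linear intensities (2.5 to 18384.7), made by RMA in Affymetrix Expression Console per the submitters' processing notes; versions, probe filters and a genome build are not stated by the sources used. Their log2 was taken here from the deposited values. RMA includes a quantile step over all arrays, which pulls them to a like distribution, and it compresses low signals. Of 41345 rows 23521 name 1 gene and 1814 name several, which were left out; 22180 genes remained, 1082 of them with several rows, where the row of highest mean was used. limma 3.58.1 in R 4.3.3 (lmFit, eBayes with an intensity trend) fitted group and age over all 12 arrays, with 5 residual and 7.65 prior degrees of freedom, Benjamini-Hochberg adjustment over all genes and 95% intervals. There were 12 comparisons: 9 between groups, 2 interactions and age. Age was the replicate number, so it was kept in the fit. The scripts were tested on simulated data.

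The 10 genes and the 15 lists were chosen with earlier results of these data known. Beside all 10 genes, the text names, per list and comparison, up to 3 passing genes of largest difference and the largest that did not pass (or 2 where none passed), and the genes of closest profile (10 for the connective tissue type, 5 each for the others, predicted loci left out); exceptions are said. No array depth exists for intensities, and the number of arrays limits the precision. Alternatives were the replicate block, the trend, a filter on dim genes, a further quantile step, averaging over a gene's rows, muscle or hair gene means as covariates, only the arrays compared, a 1.5-fold minimum and each array left out. Promoters came from RefSeq (GRCm38.p6).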

Additional observations from a re-analysis of the deposited data

Results flagged for a closer look

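In 6 cases the same contrast differed between pools labelled as having and as lacking IL-6 by the interaction term of limma; Il6 itself was above the array median in 3 of the 4 IL-17C+KO pools. For involved transgenic skin against its control, WT or IL-6KO, the difference of log2 differences was -2.25 for Mcpt4 and -3.39 for Hdc. For involved against uninvolved transgenic skin it was -1.94 for Cma1, -3.10 for Mcpt4, -3.54 for Tpsb2 and -6.31 for Hdc. No explanation was weighed.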

How the results depend on the processing

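Each group has 2 pools that differ in age, so 1 pool often decides a call, and a fit that leaves 1 pool in a group assumes that it varies like the others. Leaving out each array in turn gave 1 to 3 passing genes of the 10 for IL-17C+ involved against WT, 1 to 4 against IL-17C+ uninvolved, 0 to 2 for IL-17C+KO uninvolved against IL-6KO, 0 to 1 for IL-17C+KO involved against uninvolved, 0 to 4 for IL-17C+KO against IL-17C+ involved, 1 to 2 for IL-17C+KO against IL-17C+ uninvolved, 0 to 3 for the interaction of transgene and IL-6, and 3 to 5 for that of site and IL-6. In these fits some differences that had not passed changed sign: Cpa3 in IL-17C+KO against IL-17C+ uninvolved (-0.010 to 2.27), Hdc in IL-17C+ uninvolved against WT (-0.35 to 0.94), Tpsb2 in IL-6KO against WT (-0.73 to 0.074), Hdc in IL-17C+KO involved against IL-6KO (-0.15 to 0.73) and Slc18a2 in IL-17C+KO uninvolved against IL-6KO (-0.76 to 0.050).

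With the muscle gene mean as a covariate, 0 of the 10 genes passed in every comparison that had a call except IL-17C+KO uninvolved against IL-6KO, and Hdc in IL-6KO against WT was at -0.18, Prss27 at -1.22 (IL-17C+ involved against WT) and -1.13 (against IL-17C+ uninvolved), and Gzmf at -0.89 (against IL-17C+ uninvolved). That covariate widened the median standard error 2.15 times. With the hair gene mean, 1 gene passed for IL-17C+ involved against WT and 0 for IL-17C+KO involved against uninvolved, IL-17C+KO against IL-17C+ involved and the interaction of transgene and IL-6; in IL-17C+KO involved against IL-6KO, Mcpt4 was at 0.28 and Hdc at -0.57. With only the arrays compared, 5 genes passed for IL-17C+ involved against WT, 2 for IL-17C+KO uninvolved against IL-6KO and 2 for IL-17C+KO involved against uninvolved. The cause was not tested.

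Age is the replicate number and a block in the fit: without this replicate block no count of the 10 genes changed. With genotype and age as a replicate block of involved and uninvolved pools, whose pairing is not given, the counts were 3 (IL-17C+ involved against uninvolved), 0 (IL-17C+KO involved against uninvolved) and 4 (site and IL-6). Without the 6 arrays labelled IL-6KO or IL-17C+KO, chosen after seeing the data, 3, 3 and 0 genes passed in the comparisons within IL-17C+ and WT. Over all genes, IL-17C+ involved against WT gave 0 calls (muscle covariate) to 883 (only the arrays compared) and IL-17C+ involved against uninvolved 0 to 770.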
